A study of Mus musculus with 27 samples.

Results

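The respiratory chain genes described here are 78 of the 18193 genes that had a probe set of a single symbol on Affymetrix mouse expression arrays. They were chosen by a rule on their symbols that uses no measured value, though earlier results of these data were known when they were chosen. The rule gave 35 genes of complex I (Nduf names), 4 of complex II (Sdha to Sdhd), 8 of complex III (Uqcr names), 14 of complex IV (Cox names) and 17 of complex V, the ATP synthase (Atp5 names). Where a gene had several probe sets, which was so for 47 members, the brightest by its mean over the 27 arrays stood for it. Cox4i1, Cox7a2l, Ndufab1 and Cyc1 lie outside these names, as do the subunits encoded by mitochondrial DNA, and Ndufa11, Ndufs6 and Cox7b were not analysed here.

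The arrays measured 3 mouse pluripotent lines at 3 times, with 3 replicates in each of the 9 groups. The labels call the replicates biological without saying what was separate, so the p-values measure the spread between these samples. The R1 line comes from embryonic stem cells. The other lines are induced pluripotent cells: H9, called 3F by its labels, and 19BL, called 4F, where the number reads as that of the reprogramming factors. Day 0 cells were undifferentiated, grown with leukaemia inhibitory factor (LIF) on feeder cells that mitomycin had inactivated. Day 5 and day 11 cells came from embryoid bodies, aggregates that differentiate without an added inducer, in medium without LIF that held 20% foetal bovine serum. Serum at 20% is recorded for the day 0 samples as well. Each number of factors is represented by 1 line, so the factors and the line cannot be told apart, and the labels do not name the factors, the clones or the passage. Every sample is bulk RNA from a culture of mixed cells, in which fewer cells of a type and less RNA per cell cannot be told apart. The values are log2 signals, so a difference of 1 is 2-fold, and errors are standard deviations (SD) of 3 arrays or standard errors (SE) from the fit.

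The respiratory chain passes electrons from NADH through complex I, and from succinate through complex II, to complex III, cytochrome c and complex IV, and the proton gradient that complexes I, III and IV build drives ATP synthesis by complex V. Most subunits are encoded in the nucleus, and their genes are read by NRF1, the ETS factor GABP, YY1 and oestrogen-related receptors, with coactivators of the PGC-1 family. Pluripotent mouse cells rely strongly on glycolysis, and heart muscle is among the tissues richest in respiratory chain proteins. Several complex IV subunits, and Ndufa4, which was first assigned to complex I, exist as a common form and a form tied to muscle, testis or low oxygen. Ndufa4 and Ndufa4l2 are counted with complex I here by their names alone.

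Some members hold motifs of these factors in their promoters. A window from 250 bases before to 50 bases after the gene's start was at hand from RefSeq (GRCm38.p6) for 65 members and 14452 genes in all, and both strands were searched. The GABP-type ETS core CCGGAAG was found in 16 of the 65 members (24.6%) and in 13.8% of all genes. The NRF1 core GCATGCGC was found in 9 members (13.8%, against 4.27% of all genes), and 4 members hold the full NRF1 palindrome, in which the core overlaps itself on the other strand (6.15% against 1.58%). The YY1 core AAGATGGC lay in 8 members (12.3% against 3.69%), and the oestrogen-related receptor element TCAAGGTCA in Sdhd and Atp5g3 (3.08% against 0.353%). A match is a run of letters and not a measured binding site, and 36 of the 65 windows held none of the 5 motifs. The 100 bases before the transcript start of 4 members are shown because these genes carry the day 11 results or one of the rarer motifs; they were picked after their values were seen. Atp5g1, Atp5b, Cox5a and Sdha, which recur below, had a window with no match. The start is that of the transcript in the RefSeq promoter set; for Atp5g3 it lies inside the annotated gene (chr2:73908447-73912464), so the bases shown come before that transcript and not before the whole gene. Capitals mark the motif, and each run reads 5′ to 3′ along the gene, with a motif found on the other strand shown as its complement.
Ndufs3, ETS core, chr2:90904722-90904821, minus strand: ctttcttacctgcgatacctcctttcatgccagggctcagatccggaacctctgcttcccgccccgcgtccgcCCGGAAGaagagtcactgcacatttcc
Sdhd, ETS core on the other strand, chr9:50603850-50603949, minus strand: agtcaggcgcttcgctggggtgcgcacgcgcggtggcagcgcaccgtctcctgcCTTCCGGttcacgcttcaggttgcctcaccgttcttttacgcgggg
Atp5g2, NRF1 palindrome, chr15:102671048-102671147, minus strand: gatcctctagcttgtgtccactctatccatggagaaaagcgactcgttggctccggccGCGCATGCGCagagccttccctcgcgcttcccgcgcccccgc
Atp5g3, oestrogen-related receptor element on the other strand, chr2:73911327-73911426, minus strand: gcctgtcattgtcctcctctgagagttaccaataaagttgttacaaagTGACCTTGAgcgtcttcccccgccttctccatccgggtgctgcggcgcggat

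Respiratory chain probe sets were among the bright ones. Their median level was 12.09, against 7.39 for all genes, and 60 of the 78 lay at 11 or above. Complex IV was the exception, with a median of 9.29 and 7 of its 14 genes under 8.5, most of them tissue forms. Brightness also depends on the probes, so it does not rank expression between genes. The brightest probe sets of complexes III, IV and V were Uqcrb (14.44), Cox5b (14.29) and Atp5c1 (14.08), and that of complex II was Sdha (12.15). Ndufb4 stood at 4.56, Cox7c rested on a dim probe set (7.48) that can match several transcripts, and the other members under 8.5 included Cox7b2, Cox8b, Cox7a1, Cox6b2 and Ndufa4l2.

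The level of bright genes moved with time on these arrays, and this bears on every comparison of days. The 95th percentile of gene levels averaged 12.40 to 12.42 in the 3 day 0 groups and 11.72 to 12.04 in the 6 later groups. The median over the 78 members went with it, from 12.55 ± 0.23 (SD, n = 3) in R1 at day 0 to 11.90 ± 0.04 at day 5 and 12.15 ± 0.21 at day 11. In 3F it was 12.30 ± 0.02, 12.07 ± 0.13 and 11.88 ± 0.45, and in 4F 12.52 ± 0.17, 12.09 ± 0.13 and 12.01 ± 0.13. Members between levels 11 and 15, a band set after the values were seen, were therefore set beside the 1757 other genes of that band. From day 0 to day 5 the 60 members moved about as far as those genes: the medians were −0.63 and −0.51 in R1, −0.32 and −0.38 in 3F, and −0.44 and −0.43 in 4F. From day 0 to day 11 they lay above them: −0.44 and −0.55 in R1, −0.43 and −0.81 in 3F, and −0.43 and −0.72 in 4F. Equally bright genes of other kinds thus moved down as well, and the direction of the members as a family depended on how the arrays were scaled.

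**Figure D1:**
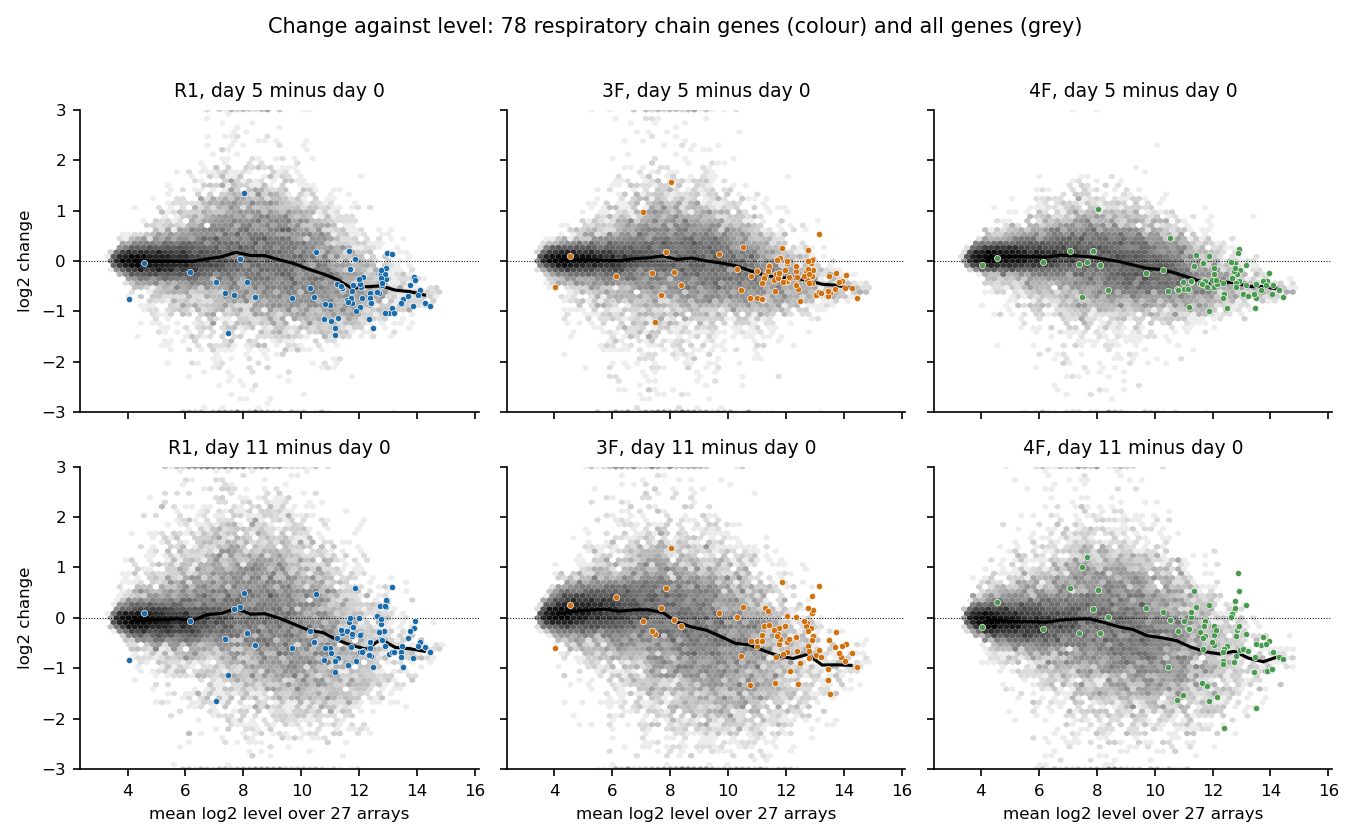
Log2 change from day 0 to day 5 (top) and day 11 (bottom) against the mean log2 level over 27 arrays, for the 78 respiratory chain genes (coloured points), all 18193 genes (grey, darker where genes are denser; changes past 3 are drawn at the edge) and their running median (black line, bins of 0.5 log2). The black line drops below 0 for bright genes in each panel, and the members lie about it at day 5 and mostly above it at day 11 in 3F and 4F.

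Some arrays stood apart. 3F day 11 replicate 1 had the lowest 95th percentile of gene levels (11.48), and its member median of 11.52 compared with 12.39 and 11.75 in replicates 2 and 3. R1 day 0 replicate 1 had lower values than its partners for several small subunits, such as Ndufb9 (12.45 against 13.31 and 13.49), and a higher one for Sdha (12.88 against 12.19 and 12.05). An index of RNA integrity, which rises as transcripts shorten, was taken from the arrays' controls for Actb and Gapdh as the 3′ minus the 5′ signal. It was 2.69 ± 0.23 (SD, n = 3) in 4F at day 11, above the 1.94 ± 0.20 of R1 and 1.55 ± 0.23 of 3F at day 11 and the 1.09 to 1.45 of the day 0 groups. All 3 of the 4F day 11 arrays (2.44 to 2.89) lay above every other array. Values with this index as a covariate are given beside the main results it changes. That fit holds a mean per group, so the slope of the index comes only from the spread within groups. This spread is small (SD 0.07 to 0.34) beside the distance of 4F day 11 from the other groups. Whether a call passes with the index therefore cannot decide the part of RNA integrity. Cell identity followed the labels: all 8 pluripotency markers passed as lower at day 11 in each line, Pou5f1 by −5.44 ± 0.52 in R1, −5.38 ± 0.52 in 3F and −2.81 ± 0.52 in 4F (log2 ± SE). Of 16 cardiomyocyte markers 11 were higher at day 11 in R1, 12 in 3F and 3 in 4F, beside 21.5%, 20.2% and 14.6% of all genes. The 4F count thus lay near the share of all genes. Some markers went the other way: the mean of Ttn went from 5.85 to 5.05 in R1, and that of Myh6 from 6.02 to 4.31 in 4F. Tnnt2, cardiac troponin T, stood at 10 to 10.84 in the 6 R1 and 3F day 11 arrays and at 5.40, 5.81 and 8.25 in 4F.

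At day 5 the respiratory chain genes of the R1 line were lower in most cases. At an adjusted p under 0.05, 52 of 78 were lower and 1 was higher, where 19.4% of all genes were lower and 16.2% higher. Under cyclic loess, which removes a shift tied to brightness, 23 were lower and 8 higher (18.8% and 17.4% of all genes). The counts under quantile normalization were 18 and 6 (16.1% and 18% of all genes). As deposited, the lower genes were 20 of 35 in complex I, 1 of 4 in complex II, 7 of 8 in complex III, 11 of 14 in complex IV and 13 of 17 in complex V, and 11 of them were at least 2-fold lower and 1 gene at least 2-fold higher (8.1% and 6.62% of all genes). In 3F, 21 members were lower and 2 higher (17.2% and 12.9% of all genes), and under loess 5 and 5 (16.1% and 14%). In 4F, 24 were lower and 1 higher (13% and 8.5% of all genes), and under loess 4 and 7 (11.9% and 8.49%). Without 4F day 0 replicate 2 the 4F count dropped from 25 to 16. Members that passed under all 3 scalings numbered 18 in R1, 6 in 3F and 3 in 4F. The share of all genes that pass this rule was not computed, so these counts are no result about the family.

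The largest falls in R1 among those 18 came from complexes I, III, IV and V. Uqcrq of complex III fell by 1.46 on the log2 scale (SE 0.23, adjusted p = 3.67e-05), and Ndufb6 of complex I by 1.34 (SE 0.21, adjusted p = 4.02e-05). Ndufb6 measured 12.90, 13.43 and 13.40 at day 0 and 11.87, 12.18 and 11.66 at day 5, so the groups do not overlap. A second probe set of Ndufb6 changed by −1.19, while for Uqcrq the second one changed by −0.08 only, so its fall rests on 1 probe set. Ndufs4, an accessory subunit of complex I, fell by 1.33 (SE 0.31, adjusted p = 0.0019), with 0.20 and −0.92 in its other probe sets. Atp5l, subunit g of ATP synthase, fell by 1.19 (SE 0.25), Atp5g1, one of 3 genes for the c ring, by 1.15 (SE 0.18), and Atp5j by 1.04 (SE 0.16). Cox7c changed by −1.43 ± 0.50, a call that 4 single arrays ended (R1 day 0 replicates 2 and 3, adjusted p = 0.123 and 0.0967, and R1 day 5 replicates 1 and 3, 0.0773 and 0.13).

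Sdhd, a membrane anchor of complex II, and Cox8a, the common form of the smallest complex IV subunit, fell at day 5 in more than 1 line. Sdhd measured 12.29, 12.73 and 12.48 in R1 at day 0 and 11.33, 11.61 and 11.60 at day 5. In 4F it measured 12.38, 12.73 and 12.70, then 11.65, 11.61 and 11.55. The day 5 arrays lay below the day 0 arrays in both lines, and Sdhd fell by 0.99 in R1 (SE 0.19, adjusted p = 0.000241) and by 1.0 in 4F (SE 0.19, adjusted p = 0.000516). Its second probe set changed by −0.64 and −0.71. Cox8a fell by 0.72 in R1, 0.58 in 3F and 0.59 in 4F (SE 0.13 each, adjusted p = 0.000192, 0.00189 and 0.0028). Atp5g1 fell by 0.74 in 3F (SE 0.18, adjusted p = 0.0033).

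Ndufa4l2 went the other way in all 3 lines. It encodes a relative of the complex IV-associated protein Ndufa4 and is known as a gene induced by low oxygen. In R1 it measured 6.79, 7.55 and 7.37 at day 0 and 8.68, 8.26 and 8.82 at day 5. In 3F it measured 7.14, 7.62 and 7.31, then 8.83, 8.90 and 9.06, and in 4F 7.11, 7.89 and 7.09, then 8.25, 8.12 and 8.80. No day 5 array reached down to a day 0 array of its line. Ndufa4l2 rose by 1.35 in R1 (adjusted p = 0.00029), 1.57 in 3F (6.72e-05) and 1.03 in 4F (0.0064), with an SE of 0.26 each, and passed under all 3 scalings and without any 1 array. Its common relative Ndufa4 changed by −0.92 ± 0.23 in R1 (adjusted p = 0.00298), −0.39 in 3F (0.231) and −0.52 in 4F (0.115), though under loess by −0.52, −0.08 and −0.18. Ndufb11, a complex I membrane subunit encoded on the X chromosome, rose in 3F by 0.53 ± 0.15 (adjusted p = 0.00716), and its other 2 probe sets changed by 0.53 and 0.69.

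Markers shared by fibroblasts and feeder cells differed between day 0 and day 5. Of 10 such markers, 5 were lower at day 5 in R1, 8 in 3F and 9 in 4F, and 0 higher. Of all genes 19.4%, 17.2% and 13% were lower. The markers' mean log2 level ranged from 9.63 to 10.48 in R1, 11.03 to 11.85 in 3F and 9.99 to 10.89 in 4F at day 0, and from 7.0 to 8.92 over the 9 day 5 arrays. At day 11 it ranged from 12.04 to 12.36 in R1, 12.07 to 12.58 in 3F and 10.05 to 11.23 in 4F, so the list is not high in the day 0 cultures alone. The part of feeder cells in the day 5 values was not tested.

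**Figure D2:**
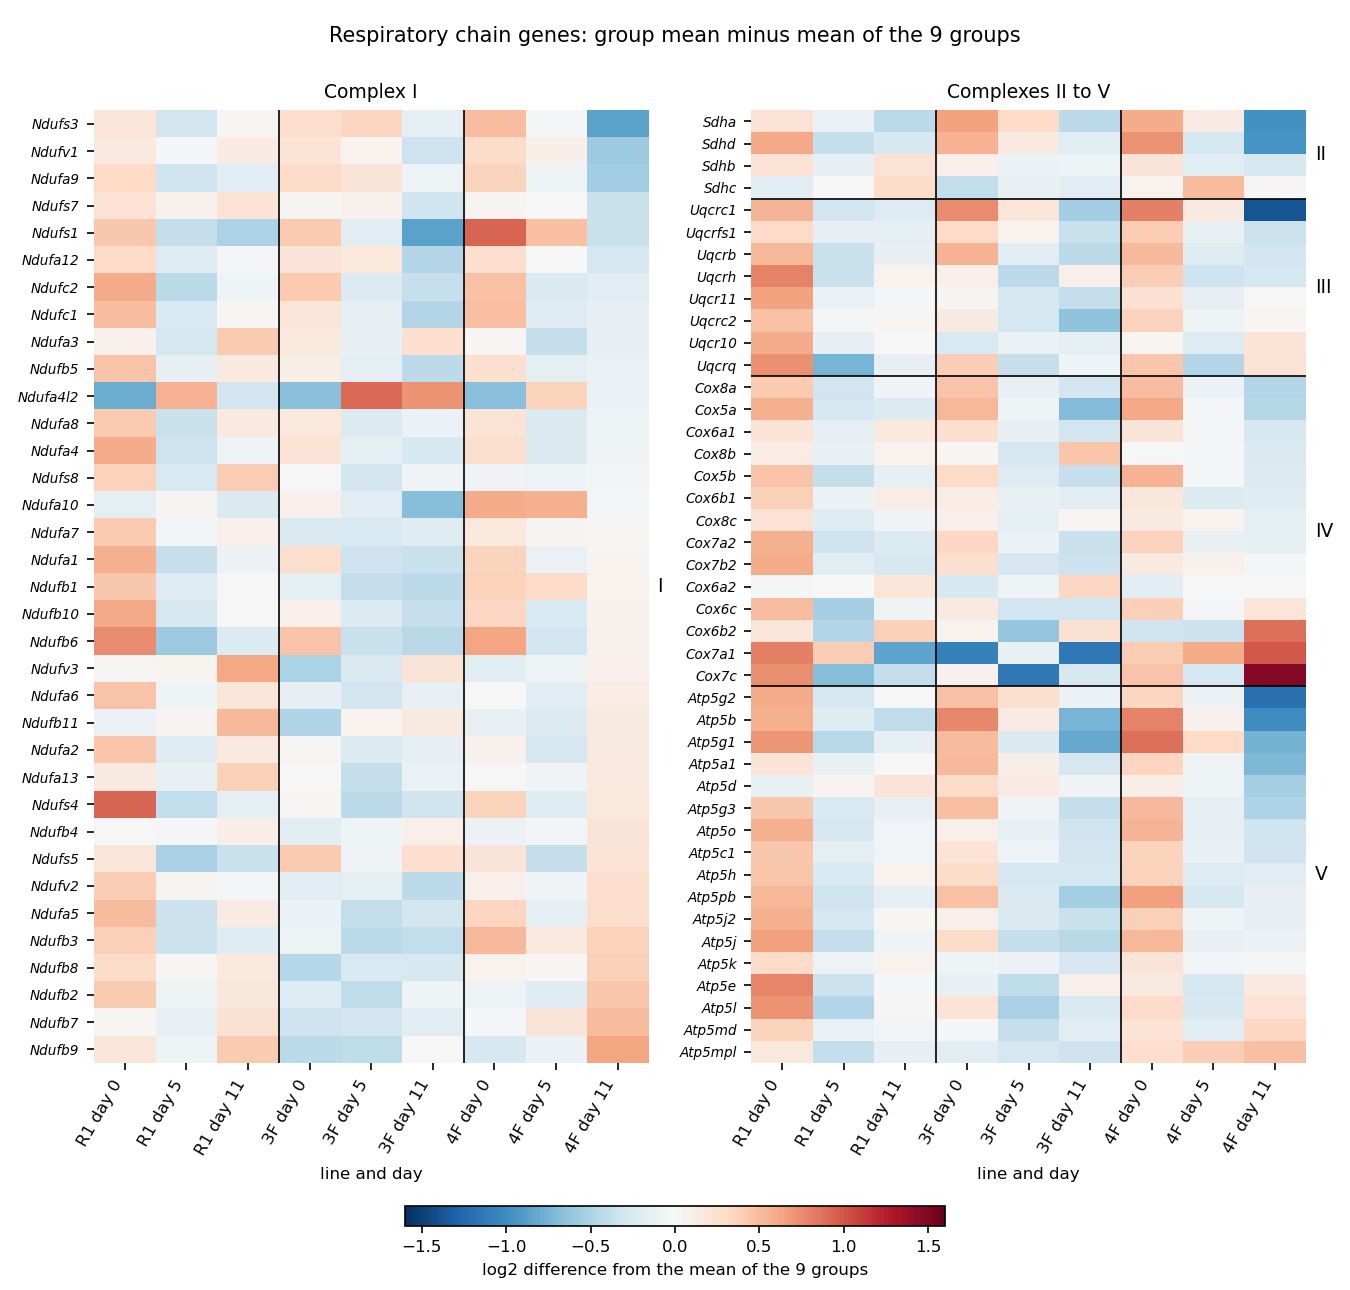
Log2 difference of each group mean (3 arrays) from the mean of the 9 groups for the 78 respiratory chain genes, ordered within each complex by the 4F day 11 column; red is higher and blue lower. The day 0 columns are red for most genes, Ndufa4l2 is blue there, and the 4F day 11 column runs from Uqcrc1, Atp5g2 and Atp5b (blue) to Ndufb9, Cox7a1 and Cox7c (red).

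At day 11 the deposited values still put more members below day 0 than above it. In R1, 38 of 78 were lower and 2 higher (23.8% and 21.5% of all genes), in 3F 33 and 4 (27.6% and 20.2%), and in 4F 34 and 3 (28.7% and 14.6%). Under cyclic loess the balance turned in each line, with 8 lower and 20 higher in R1, 6 and 34 in 3F, and 10 and 26 in 4F, where 21.7% to 23.1% of all genes were lower and 21.9% to 24.6% higher. Quantile normalization gave 10 lower and 13 higher in R1 (24.1% and 22.6% of all genes), 8 and 18 in 3F (23.1% and 23.3%), and 11 and 22 in 4F (21.9% and 20.6%). The median member change went from −0.44 as deposited to 0.07 under loess in R1, from −0.39 to 0.33 in 3F and from −0.31 to 0.33 in 4F, while the median of all genes moved by more than 0.1 in 4F alone, from −0.11 to 0.00. Of the members, 2 were at least 2-fold lower in R1 and 0 higher (12.2% and 11.4% of all genes), 7 and 1 in 3F (16% and 7.55%), and 11 and 1 in 4F (14.1% and 6.72%). Without R1 day 11 replicate 3 the R1 count dropped from 40 to 24. The family's direction at day 11 thus turned with the scaling. The changes from day 0 described next rest on members that passed with 1 sign under all 3 scalings, unless a limit is given. These numbered 8 in R1, 9 in 3F and 13 in 4F. The share of all genes that pass this rule was not computed, so these counts are no result about the family.

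Atp5g1, Ndufs1 and, in both induced lines, Uqcrc1, Atp5b and Cox5a fell by day 11 on that count. Ndufs1 is the largest core subunit of complex I and carries iron-sulphur clusters. It measured 12.39, 12.01 and 11.79 in R1 at day 0 and 10.95, 11.41 and 11.00 at day 11. In 3F it went from 12.06, 12.07 and 12.02 to 10.54, 10.81 and 10.95, and in 4F from 12.48, 12.68 and 12.52 to 10.95, 11.20 and 11.67. Every day 11 array lay below the day 0 arrays of its line. Ndufs1 fell by 0.94 in R1 (adjusted p = 5.91e-05), 1.29 in 3F (1.09e-06) and 1.29 in 4F (1.39e-06), with an SE of 0.17 each. With the RNA integrity index as a covariate it changed by −0.71 in R1 and −1.06 in 3F, which passed, and by −0.61 in 4F (adjusted p = 0.204), which did not.

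Atp5g1, Atp5g2 and Atp5g3 encode the same mature c-ring subunit of ATP synthase behind different import sequences. Atp5g1 measured 11.57, 11.61 and 11.24 in R1 at day 0 and 10.37, 10.96 and 10.56 at day 11. It went from 11.40, 11.31 and 11.12 to 9.55, 10.37 and 9.95 in 3F, and from 11.51, 11.74 and 11.70 to 9.92, 9.90 and 10.22 in 4F. The day 11 arrays lay below the day 0 arrays throughout, and Atp5g1 fell by 0.84, 1.32 and 1.63 in R1, 3F and 4F (SE 0.18 each, adjusted p = 0.000521, 2.54e-06 and 1.97e-07). It still fell with the index as a covariate, by 0.77, 1.25 and 1.42. The mean of its probe sets changed by −0.27 in R1 (adjusted p = 0.12), which did not pass. Atp5g3, the brightest of the 3, changed by −0.56, −0.87 and −1.02 as deposited but by 0.20, 0.18 and −0.08 under loess. Atp5g2 fell in 4F by 1.53 (SE 0.16, adjusted p = 6.78e-08), by 1.16 with the index. This rests on 1 probe set: the other 2 of Atp5g2 are dim, and the mean of the 3 changed by −0.07.

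Uqcrc1, a core protein of complex III, and Atp5b, the catalytic beta subunit of ATP synthase, had the largest falls at day 11 in 4F. Uqcrc1 measured 13.19, 13.36 and 13.09 in 4F at day 0, 12.55, 12.60 and 12.51 at day 5 and 10.63, 11.03 and 11.43 at day 11. The 3 days do not overlap. Uqcrc1 fell by 2.18 in 4F (SE 0.19, adjusted p = 8.84e-09), a 4.53-fold drop, and by 1.30 in 3F (SE 0.19, adjusted p = 6.18e-06). Atp5b measured 14.29, 14.36 and 14.29 in 4F at day 0 and 12.16, 12.57 and 12.83 at day 11, and 14.34, 14.22 and 14.30 against 12.43, 12.86 and 13.05 in 3F. It fell by 1.79 in 4F (SE 0.17, adjusted p = 2.48e-08) and 1.51 in 3F (SE 0.17, adjusted p = 1.65e-07). With the index as a covariate Uqcrc1 fell by 1.02 in 4F and 0.92 in 3F, and Atp5b by 1.09 and 1.28.

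In complex II, 3 of 4 genes passed as lower in 4F at day 11, with a median of −1.02 over the 4, where 28.7% of all genes were lower. Under loess 2 were lower and 1 higher, with a median of −0.34 (21.7% and 21.9% of all genes). Quantile normalization gave 2 lower and 0 higher, with a median of −0.36 (21.9% and 20.6% of all genes). Sdha and Sdhd were lower under all 3 scalings, while Sdhb changed by −0.47 as deposited and by 0.20 under loess. Sdhd measured 12.38, 12.73 and 12.70 at day 0 and 11.07, 10.80 and 10.97 at day 11, and Sdha, the flavoprotein that oxidises succinate, 12.69, 12.90 and 12.64 against 10.77, 11.24 and 11.53. The groups lay well apart for both. Sdhd fell by 1.66 (SE 0.19, adjusted p = 2.43e-07), by 2.08 with the index as a covariate, and by 0.86 in R1 (SE 0.19, adjusted p = 0.000574); its second probe set changed by −0.66 in 4F and −0.64 in R1. Sdha fell by 1.57 (SE 0.20, adjusted p = 1.49e-06), and its second probe set changed by −1.33, but with the index it changed by −0.18 (adjusted p = 0.732).

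The remaining falls that held under all 3 scalings touched complexes I and IV. Cox5a, a common complex IV subunit, measured 13.98 in each 3F day 0 array and 12.56, 12.96 and 12.74 at day 11. It fell by 1.22 in 3F (SE 0.12, adjusted p = 2.2e-08) and 1.08 in 4F (SE 0.12, adjusted p = 1.98e-07), although under loess by 0.25 and 0.22 only. Its other 2 probe sets changed by −1.14 and −1.17 in 3F and by −0.94 and −1.11 in 4F. Ndufs3, a core subunit of complex I, fell in 4F by 1.35 (SE 0.17, adjusted p = 6.82e-07), and Cox8a by 0.96 (SE 0.13, adjusted p = 3.66e-06). Neither passed with the index as a covariate (Ndufs3 −0.78, adjusted p = 0.108, and Cox8a −0.64, adjusted p = 0.119). Cox7b2, a testis form of complex IV with dim values near 4, fell by 0.84 in R1 and 0.60 in 3F (SE 0.15 each, adjusted p = 5.71e-05 and 0.00195).

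**Figure D3:**
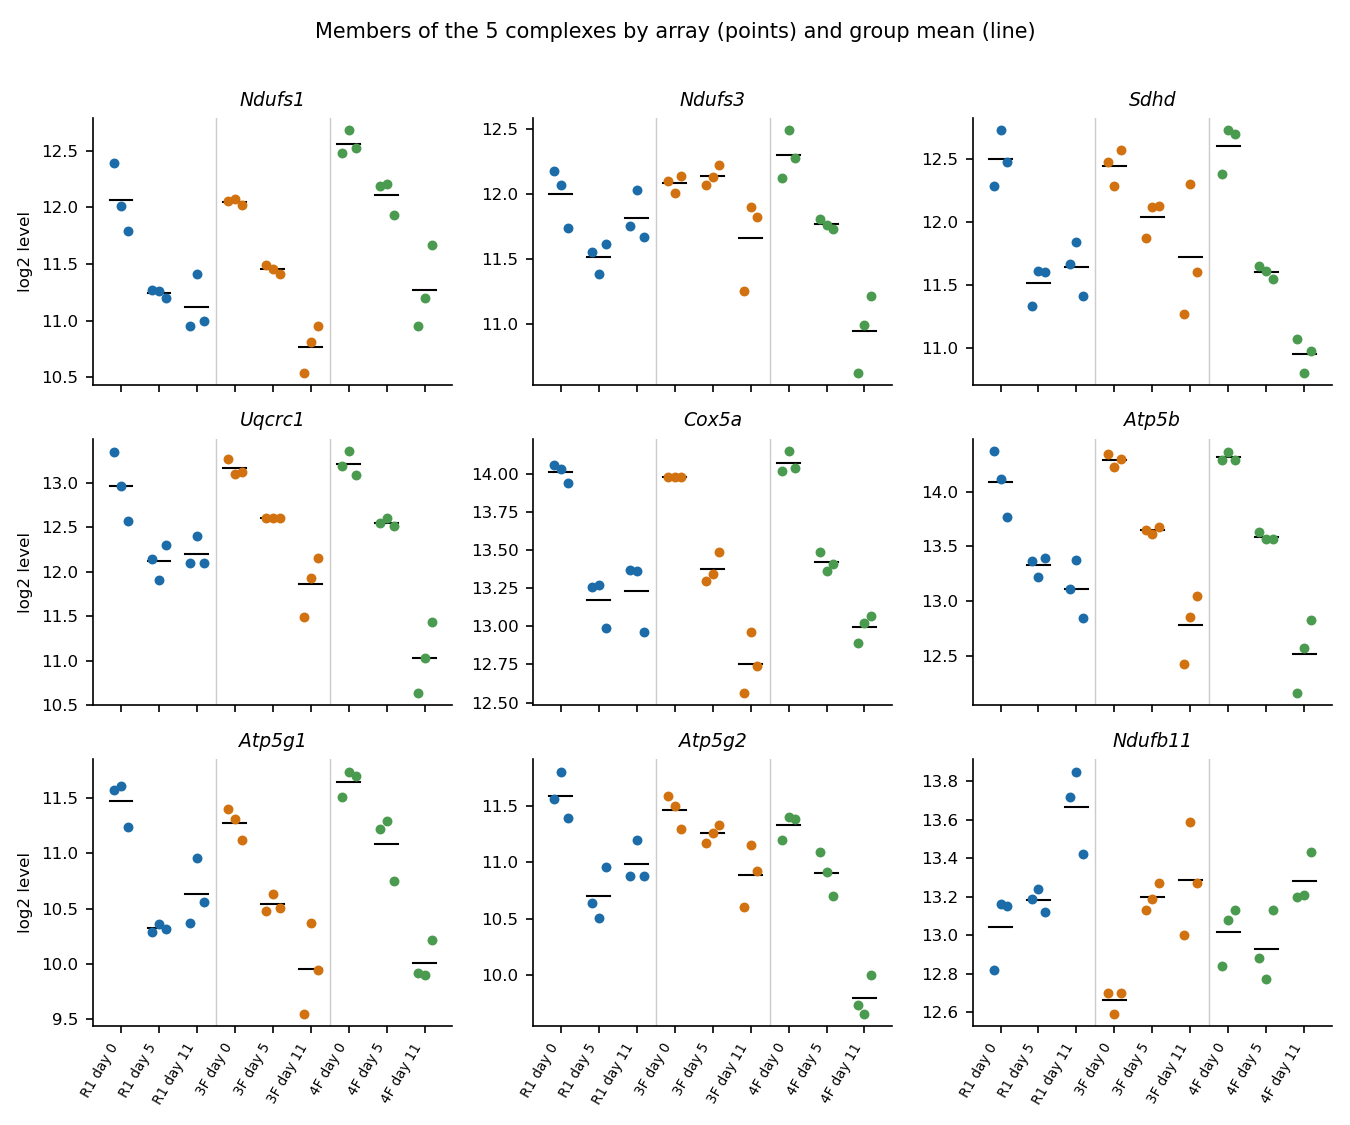
Log2 level of 9 members of the 5 complexes in each of the 27 arrays (points) with the mean of 3 arrays (line), by line and day. Ndufs1, Cox5a, Atp5b and Atp5g1 lie lower at day 11 than at day 0 in each line; Ndufs3 and Atp5g2 are lowest in 4F at day 11; Ndufb11 is higher at day 11 in R1 and 3F.

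A few genes with Nduf names rose. Ndufb11 measured 12.82, 13.16 and 13.15 in R1 at day 0 and 13.72, 13.85 and 13.42 at day 11, and 12.70, 12.59 and 12.70 against 13.00, 13.59 and 13.27 in 3F. The groups do not overlap in either line. It rose by 0.62 in R1 (SE 0.15, adjusted p = 0.00121) and 0.63 in 3F (SE 0.15, adjusted p = 0.00106), and its other 2 probe sets changed by 0.53 and 0.60 in R1. Ndufv3, an accessory subunit of the NADH-oxidising arm, rose by 0.60 in R1 and 0.71 in 3F (SE 0.15 each, adjusted p = 0.00218 and 0.000424). Ndufa4l2 stayed up in 3F, 1.38 above day 0 (SE 0.26, adjusted p = 0.000124). In 4F, Ndufb9 was higher by 0.88 (SE 0.24, adjusted p = 0.00394), but its second probe set changed by 0.10 and, with the index as a covariate, the sign turned (−0.73, adjusted p = 0.154).

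Between day 5 and day 11 the balance of calls again turned with the scaling. In R1, 7 members were higher and 2 lower (13.5% and 13.8% of all genes), and under loess 22 and 2 (16% and 13.7%). In 3F, 4 were higher and 13 lower (14% and 23.6%), and under loess 27 and 1 (18% and 18.6%). In 4F, 6 were higher and 16 lower (12.5% and 25.9%), and under loess 32 and 8 (20% and 17.3%). Quantile normalization gave 8 higher and 3 lower in R1, 10 and 5 in 3F, and 21 and 10 in 4F. Whether the change over this interval differed between lines was not tested. These counts leaned on single arrays. The R1 total of 9 became 5, 4 and 3 without R1 day 5 replicate 1, R1 day 5 replicate 3 and R1 day 11 replicate 2. The 3F total of 17 became 9, 9 and 8 without 3F day 5 replicates 1, 2 and 3, 11 without 3F day 11 replicate 1 and 31 without replicate 2, and the 4F total of 22 became 11 without 4F day 11 replicate 1. Passing under all 3 scalings, Ndufa3 rose in R1 by 0.70 (SE 0.15, adjusted p = 0.000836), with 0.78 in its second probe set, and Atp5b fell in 3F by 0.86 (SE 0.17, adjusted p = 0.0003). In 4F, 8 members fell and 6 rose over this interval under all 3 scalings, a rule for which the share of all genes was not computed. Those that rose were Ndufb9, Ndufs5, Uqcrq, Cox6b2, Cox7c and Atp5md. Those that fell were Ndufs1, Ndufs3, Ndufv1 and, with the largest changes, Uqcrc1 by 1.52 (SE 0.19), Sdha by 1.10 (SE 0.20), Atp5g2 by 1.10 (SE 0.16), Atp5b by 1.07 (SE 0.17) and Atp5g1 by 1.07 (SE 0.18); with the index as a covariate Atp5g2 alone of these 5 passed (−0.81, adjusted p = 0.0397). Ndufa4l2 fell back in R1 by 0.86 (SE 0.26, adjusted p = 0.0155), a call that ended without R1 day 5 replicate 1 (0.0564), R1 day 5 replicate 3 (0.068), R1 day 11 replicate 1 (0.0653) or R1 day 11 replicate 2 (0.0683).

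At day 11 the 4F line differed from each of the other lines in 20 of the 78 members. Against R1, 16 were lower and 4 higher (17.9% and 6.87% of all genes), and against 3F 9 were lower and 11 higher (17.7% and 12.8%). These shares lie near those of all genes, so they are no result about the family. The 4 members higher than in R1 were Ndufs5, Cox7a1, Cox7c and Atp5mpl. With the index as a covariate 6 passed against R1, all lower, and 3 against 3F. The count of 20 against R1 became 12 without R1 day 11 replicate 2, 11 without 4F day 11 replicate 1 and 13 without 4F day 11 replicate 2. The count of 20 against 3F became 48 without 3F day 11 replicate 2 and 13 without 4F day 11 replicate 1 or 2. Other cell types differed between the lines as well. Of the 16 cardiomyocyte markers 11 were lower in 4F than in R1 and 9 lower than in 3F, and of the 8 pluripotency markers 5 were higher than in either. The mean log2 level of the pluripotency list ranged from 9.97 to 10.66 in 4F, 7.75 to 8.64 in R1 and 7.64 to 8.22 in 3F. Of 8 endothelial markers 7 and 6 were lower in 4F, of 7 erythroid markers 4 and 5, and of 8 visceral endoderm markers 2 and 1, with 3 higher in each comparison. The part of cell composition in the differences between lines was not tested.

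Between 3F and R1 at day 11, 3 members (Ndufs7, Cox5a and Atp5g1) were lower and 1 (Ndufa4l2, by 1.02 ± 0.26, adjusted p = 0.0384) was higher, beside 1.9% and 0.583% of all genes. Of the 4, Ndufa4l2 alone passed under all 3 scalings. That count of 4 became 0 without R1 day 11 replicate 1 or 2 or 3F day 11 replicate 1, 11 without R1 day 11 replicate 3 and 41 without 3F day 11 replicate 2. With same-numbered replicates as pairs it was 0.

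Atp5g2, Uqcrc1 and Ndufs3 were lower in 4F than in both other lines at day 11, under all 3 scalings and without any 1 array. Atp5g2 measured 9.74, 9.66 and 10 in 4F, 10.88, 11.20 and 10.88 in R1 and 10.60, 11.15 and 10.92 in 3F, so the 4F arrays lay apart. It was lower by 1.19 against R1 (log2 change −1.19 ± 0.16, adjusted p = 1.45e-05) and by 1.09 against 3F (−1.09 ± 0.16, adjusted p = 2.71e-05). The mean of its 3 probe sets, of which the other 2 are dim, differed by −0.05 and −0.17 and did not pass. With the index as a covariate its difference from R1 was −0.99 (adjusted p = 0.00901) and from 3F −0.79 (adjusted p = 0.106). Uqcrc1 differed by −1.17 ± 0.19 from R1 (adjusted p = 0.00014) and −0.82 ± 0.19 from 3F (0.00255), and Ndufs3 by −0.88 ± 0.17 (0.000505) and −0.72 ± 0.17 (0.00242). With the index neither passed, and the Uqcrc1 difference from 3F was 0.13. The part of RNA integrity in these differences was not tested beyond this covariate, which cannot decide it. Sdhd differed from 3F by −0.78 ± 0.19 (adjusted p = 0.00339), but its second probe set by 0.36. Atp5d, Ndufv1 and Atp5a1 were lower in 4F than in R1 (−0.74 ± 0.16, −0.72 ± 0.15 and −0.72 ± 0.17, adjusted p = 0.00179, 0.001 and 0.00382), and none of the 3 passed with the index.

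The change from day 0 to day 11 was then compared between lines directly. It differed between 4F and R1 for 14 members, 10 of them more negative in 4F and 4 more positive (11.8% and 3.62% of all genes), and between 4F and 3F for 5, 4 and 1 (5.15% and 4.74%). Between 3F and R1 it differed for 0 members (1.47% and 0.44% of all genes passed). These counts lie near or below the shares of all genes, so they are no result about the family. Under all 3 scalings 11 of the 14 passed, and Sdha, Sdhd and Atp5g1 did not. The largest differences on the falling side were Uqcrc1 (−1.42 ± 0.27 against R1, adjusted p = 0.00158) and Ndufs3 (−1.17 ± 0.23, adjusted p = 0.00213). Ndufs3 measured 12.12, 12.49 and 12.28 in 4F at day 0 and 10.62, 10.99 and 11.21 at day 11, while in R1 it measured 12.18, 12.07 and 11.74, then 11.75, 12.03 and 11.67. Its 2 days do not overlap in 4F and do overlap in R1. With the index as a covariate 0 of the 14 passed against R1, and against 3F Sdhd alone did (−1.22, adjusted p = 0.0446). The count of 14 became 9 without R1 day 0 replicate 2 or 4F day 0 replicate 2, 7 without R1 day 0 replicate 3 or R1 day 11 replicate 2, 8 without 4F day 0 replicate 1 and 6 without 4F day 11 replicate 1.

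The muscle, testis and low-oxygen isoforms and their common counterparts were read from a list of which 15 genes were measured: at day 11, 8 were lower in R1 and 0 higher, 7 and 2 in 3F, and 7 and 1 in 4F. The shares of all genes lower and higher were 23.8% and 21.5% in R1, 27.6% and 20.2% in 3F, and 28.7% and 14.6% in 4F. Cox6a2 and Cox8b encode the heart and muscle forms of 2 complex IV subunits. Cox6a2 stood at 9.07 in 3F day 11 replicate 1 and at 7.57 to 8.17 in the other 26 arrays, and Cox8b at 7.70 in that array and at 5.62 to 6.36 elsewhere. Both were thus high in 1 array of 27, while Tnnt2 was at 10 or above in 6. Cox6a2 passed as higher in 3F at day 11 (0.59 ± 0.22, adjusted p = 0.0294), but not without that array (0.16, adjusted p = 0.343), nor without 3F day 0 replicate 1 (0.0698) or 3 (0.0732). This Cox6a2 call did not hold under all 3 scalings. Their common counterparts Cox6a1 and Cox8a were present throughout, Cox6a1 between 13.38 and 14.32.

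Cox7a1, the heart and muscle form of subunit VIIa, went down rather than up in R1. It measured 6.82, 8.35 and 8.48 at day 0, 7.34, 7.72 and 7.36 at day 5 and 6.88, 6.37 and 5.43 at day 11, with 1 day 0 array inside the day 11 range. It fell by 1.65 (SE 0.42, adjusted p = 0.00246). In 4F it measured 7.02, 7.48 and 7.92, then 8.08, 7.70 and 7.20, then 8.58, 8.26 and 7.35, and in 3F 6.13, 6.10 and 5.73, then 6.72, 7.18 and 6.95, then 5.70, 6.74 and 5.36. At day 11 the 4F arrays lay above those of the other lines, by 1.83 ± 0.42 against R1 (adjusted p = 0.0028) and 2.13 ± 0.42 against 3F (adjusted p = 0.000679). With the index as a covariate these differences were 0.23 and −0.32 and did not pass. Over the 9 group means the genes whose pattern was most like that of Cox7a1 were Gm3134, Cystm1, Vamp1, Snhg17 and Commd1, with Pearson r of 0.956 to 0.930, given as a description. The same search for Cox6a2 (Nfkb2, Lmx1b, Ntn3, Sox5 and A430027H14Rik, r of 0.980 to 0.960) and for Cox8b (Pde3a, Vmn1r44, Ms4a15, Gm12784 and 4930556N09Rik, r of 0.970 to 0.942) rests on the mean that holds 3F day 11 replicate 1.

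Cox6b2, the testis form of subunit VIb, rose from day 5 to day 11 in each line, and passed as higher than at day 0 in 4F alone. In 4F it measured 7.38, 7.29 and 7.41 at day 0, 7.46, 7.40 and 7.16 at day 5 and 8.17, 8.38 and 9.14 at day 11, so the day 11 arrays stand alone. It rose by 1.20 from day 0 (SE 0.22, adjusted p = 9.51e-05), by 1.5 with the index, and by 1.22 from day 5 (SE 0.22, adjusted p = 0.000119). From day 5 to day 11 it also rose in R1, by 0.85 (SE 0.22, adjusted p = 0.00497), and in 3F, by 0.86 (SE 0.22, adjusted p = 0.00307), where its day 11 arrays (7.48, 8.09 and 8.19) overlapped those of day 0 (7.69, 7.89 and 7.62). In both lines Cox6b2 had first fallen. Its means at days 0, 5 and 11 were 7.88, 7.21 and 8.06 in R1 and 7.74, 7.06 and 7.92 in 3F. Its common form Cox6b1 ranged from 13.32 to 14.37. Cox7c was highest in 4F at day 11 (9.71, 9.0 and 8.14), 1.86 ± 0.50 above R1 (adjusted p = 0.00888), a call that ended without 4F day 11 replicate 1 (0.0742) and moved to 0.52 with the index. Cox8c, a testis form, ranged from 7.80 to 8.72.

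**Figure D4:**
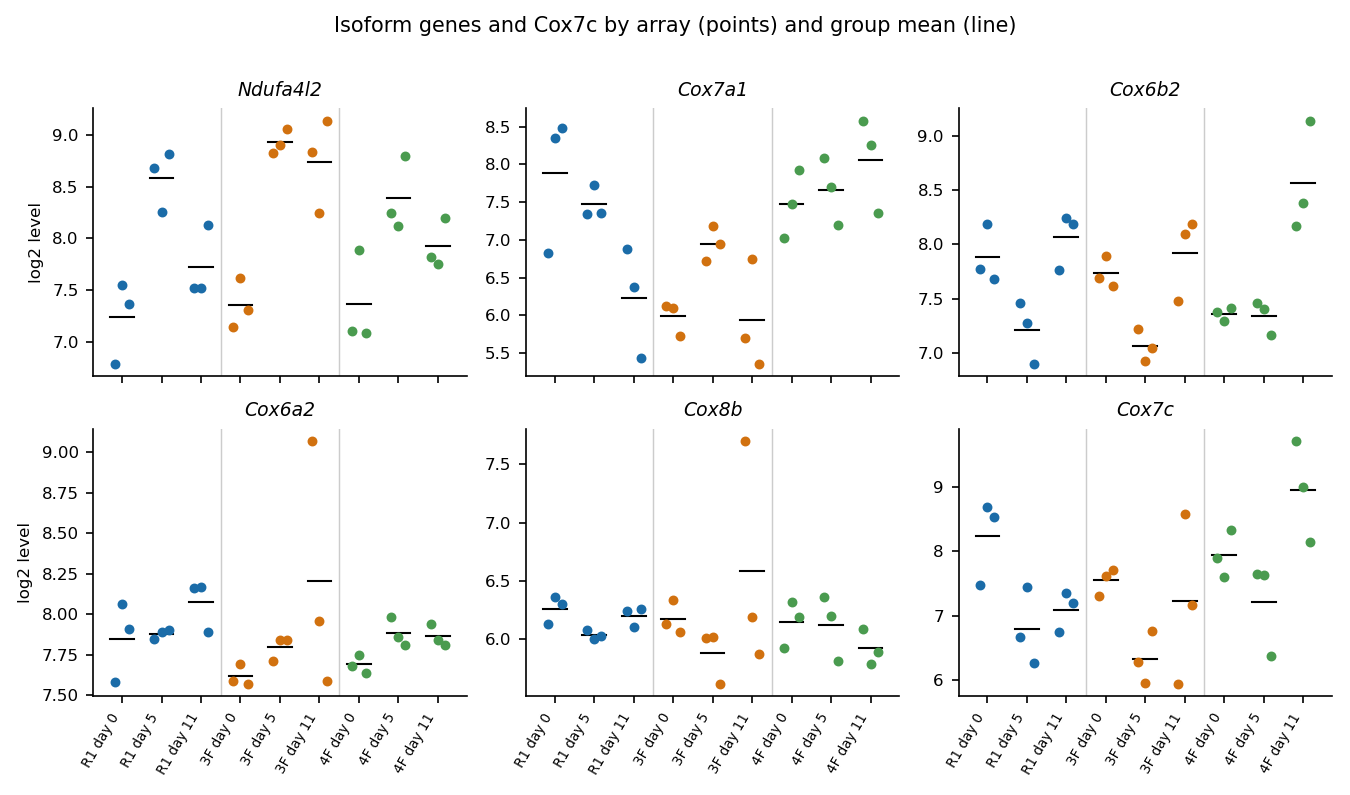
Log2 level of 5 isoform genes and Cox7c in each of the 27 arrays (points) with the mean of 3 arrays (line), by line and day. Cox6a2 and Cox8b are high in 1 array of 3F day 11; Ndufa4l2 is higher at day 5 than at day 0 in each line; Cox6b2 is highest in 4F at day 11.

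Few members passed between the undifferentiated lines, while the median difference of the members between 3F and R1 lay below 0. This rests on R1 replicates 2 and 3: the member medians were 12.30, 12.77 and 12.59 in R1 and 12.31, 12.28 and 12.31 in 3F. Members are not replicates, so the count that follows is a description with no test. Of the 60 members in the band from 11 to 15, 51 lay below the median difference of equally bright genes, with medians of −0.29 and 0.06. The median over all 78 was −0.26 as deposited, −0.29 under quantile normalization and −0.30 under loess, but −0.10 with the index as a covariate. At day 0, 4 members were lower in 3F than in R1 and 0 higher (2.55% and 4.66% of all genes): Cox7a1 (−1.90 ± 0.42), Uqcr10 (−0.83 ± 0.24), Ndufa6 (−0.58 ± 0.18) and Ndufv3 (−0.53 ± 0.15). Of these, Uqcr10 did not pass under all 3 scalings. With array weights 48 passed, and with the index 1 did (Ndufv3, −0.70). The count of 4 became 26 without R1 day 0 replicate 1, 0 without R1 day 0 replicate 2 or 3 or 3F day 0 replicate 3, 1 without 3F day 0 replicate 1 and 2 without 3F day 0 replicate 2. In 4F, Ndufa10 was higher than in R1 by 0.75 (SE 0.19, adjusted p = 0.0444; 1.24% of all genes higher and 0.912% lower) and Cox7a1 higher than in 3F by 1.49 (SE 0.42, adjusted p = 0.047; 2.1% and 2.14%). The Ndufa10 call held under all 3 scalings, and the Cox7a1 call did not. With same-numbered replicates as pairs, 2 members in place of 1 passed between 4F and R1. With the index neither of these calls passed (Ndufa10 0.72, adjusted p = 0.0626, and Cox7a1 1.02, adjusted p = 0.0516). The Ndufa10 call also ended without R1 day 0 replicate 2 (0.177) or 3 (0.206) or any 1 of the 4F day 0 arrays (0.112 to 0.169). The Cox7a1 call ended without any 1 of the 3F day 0 arrays (0.0875 to 0.207) or 4F day 0 replicate 2 (0.16) or 3 (0.217).

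At day 5 the 4F line was higher than R1 for 3 members and lower for 0 (6.14% and 6.35% of all genes), and higher than 3F for 6 and lower for 0 (7.3% and 9.78%). Ndufs1 measured 12.19, 12.21 and 11.93 in 4F, 11.27, 11.26 and 11.20 in R1 and 11.49, 11.46 and 11.41 in 3F, with the 4F arrays above the rest. It was higher by 0.87 against R1 (SE 0.17, adjusted p = 0.00121) and 0.66 against 3F (SE 0.17, adjusted p = 0.00737). Atp5mpl, a small ATP synthase subunit, was higher than in R1 by 0.77 (SE 0.19, adjusted p = 0.00786) and than in 3F by 0.68 (SE 0.19, adjusted p = 0.0132, and 0.0697 without 4F day 5 replicate 1). Atp5g1 was higher than in R1 by 0.77 (SE 0.18, adjusted p = 0.00665, and 0.0566 without 4F day 5 replicate 2). Ndufa10 was higher than in 3F by 0.75 (SE 0.19, adjusted p = 0.00913). The remaining members higher than in 3F were Ndufb1, Sdhc and Atp5g1 (0.70 ± 0.20, 0.61 ± 0.19 and 0.55 ± 0.18, adjusted p = 0.0154, 0.0312 and 0.0408). Of the 6, Ndufs1 and Ndufa10 passed with the index, and against R1 all 3 did. The count of 6 became 3 without 3F day 5 replicate 3 or 4F day 5 replicate 2, and 2 without 4F day 5 replicate 1. Between 3F and R1 at day 5, 0 members passed (0.39% and 0.258% of all genes). Pou5f1 stood at 12.62, 12.51 and 11.90 in the 4F day 5 arrays, beside 8.59 to 11.16 in R1 and 3F, and the part of the stage of differentiation in these differences was not tested.

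Genes that build and regulate the chain were read from lists drawn up beside the members. Of all genes, 23.8%, 27.6% and 28.7% were lower at day 11 in R1, 3F and 4F, and 21.5%, 20.2% and 14.6% higher. Under loess 22.8%, 23.1% and 21.7% were lower and 24.6%, 23.5% and 21.9% higher. Of 38 assembly factors measured, 18 were lower at day 11 in R1, 22 in 3F and 16 in 4F, and 1, 1 and 3 higher. With loess 18, 17 and 11 of them were lower and 2, 3 and 7 higher. Ecsit, a complex I assembly factor, fell by 2.18 in R1, 2.53 in 3F and 1.98 in 4F (SE 0.23 each, adjusted p = 9.63e-08, 8.29e-09 and 4.16e-07). It measured 8.94 to 10.04 over the 9 day 0 arrays and 6.89 to 7.77 over the 9 day 11 arrays, with no overlap. Cox11, which supplies copper to complex IV, fell by 1.78 in R1 and 1.42 in 3F (SE 0.19 each), and Atpaf2, an ATP synthase assembly factor, by 1.36 in 4F (SE 0.13).

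Of 21 regulators of mitochondrial gene expression measured, 12 were lower in R1, 13 in 3F and 12 in 4F at day 11 (1, 0 and 1 higher), and under loess 12, 10 and 5 (2, 0 and 2 higher). The shares of all genes are those given for the assembly factors, and the loess count of 5 in 4F lay near the 21.7% of all genes. Nrf1 measured 9.36 to 10.40 over the day 0 arrays and 7.42 to 9.10 over the day 11 arrays, without overlap. It fell by 1.96 in R1, 2.52 in 3F and 1.48 in 4F (SE 0.19 each, adjusted p = 2.71e-08, 6.31e-10 and 1.44e-06). Tfam, the factor that packages and transcribes mitochondrial DNA, fell by 1.62 in R1 and 1.77 in 3F (SE 0.22 each, adjusted p = 2.74e-06 and 7.19e-07). In 4F Tfam changed by −0.89 as deposited (adjusted p = 0.00226) and by −0.43 under loess (adjusted p = 0.103). Gabpa, the DNA-binding part of GABP, fell by 0.72, 1.19 and 1.36 in R1, 3F and 4F (SE 0.19 each, adjusted p = 0.00368, 2.07e-05 and 4.51e-06), but with the index as a covariate by less in R1 and 4F (−0.46, adjusted p = 0.0945, and −0.62, adjusted p = 0.279). Ppargc1a, which encodes PGC-1 alpha, stood at 3.97 to 4.70 in all 27 arrays, near the floor of the arrays, and changed by 0.32, −0.07 and 0.06 at day 11 (adjusted p = 0.081, 0.727 and 0.791). Esrra changed by −0.11, −0.14 and −0.04 (adjusted p = 0.57, 0.457 and 0.869). Nrip1, a corepressor, rose by 1.74 in R1 and 1.81 in 4F (SE 0.28 each), and Esrrb, which is also a pluripotency gene, fell by 1.78 in 4F (SE 0.22).

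**Figure D5:**
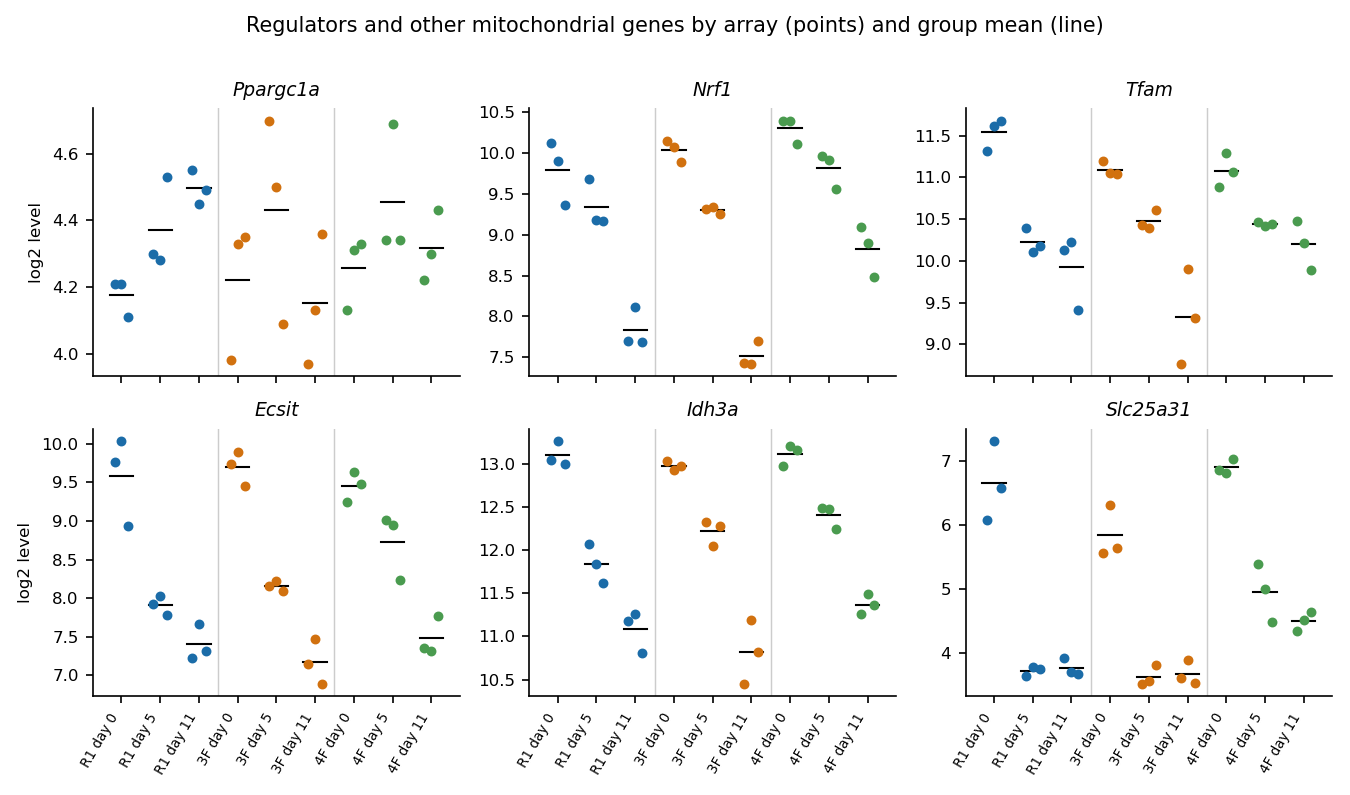
Log2 level of 3 regulators (Ppargc1a, Nrf1, Tfam), the assembly factor Ecsit, the citric acid cycle gene Idh3a and the adenine nucleotide carrier Slc25a31 in each of the 27 arrays (points) with the mean of 3 arrays (line), by line and day. Nrf1, Ecsit and Idh3a lie lower at day 11 than at day 0 in each line, while Ppargc1a stays between 3.97 and 4.70.

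The other energy lists also held more lower than higher genes at day 11 as deposited. The shares of all genes that were lower in R1, 3F and 4F were 23.8%, 27.6% and 28.7% as deposited and 22.8%, 23.1% and 21.7% under loess. Those that were higher were 21.5%, 20.2% and 14.6% as deposited and 24.6%, 23.5% and 21.9% under loess. Of 17 citric acid cycle genes 10 were lower in R1, 13 in 3F and 14 in 4F at day 11 (1, 1 and 0 higher), and under loess 7, 7 and 10 (3, 4 and 3 higher). Idh3a, a subunit of isocitrate dehydrogenase, fell by 2.02 in R1, 2.16 in 3F and 1.75 in 4F (SE 0.16 each, adjusted p = 1.48e-09, 5.01e-10 and 1.43e-08), and by 1.53, 1.38 and 1.07 under loess. Of 20 glycolysis genes 12, 13 and 16 were lower in R1, 3F and 4F (2, 2 and 1 higher), and under loess 6 in each line (4, 3 and 2 higher). Of 14 mitochondrial carriers and channels 6, 9 and 9 were lower and 0 higher, and under loess 5, 4 and 4 (4, 1 and 1 higher). Slc25a31, the adenine nucleotide carrier of germ cells and pluripotent cells, fell by 2.90 in R1, 2.17 in 3F and 2.41 in 4F (SE 0.24 each, adjusted p = 2.97e-09, 1.31e-07 and 5.01e-08), and Slc25a5, the carrier of dividing cells, changed by −1.61, −2.05 and −1.61 (SE 0.16 each). Of 8 mitochondrial antioxidant enzymes 5, 3 and 3 were lower (1, 0 and 0 higher), and under loess 3 in each line (1, 2 and 2 higher), with Sod2, the manganese superoxide dismutase of the matrix, changing by −1.5, −2.16 and −2.09 (SE 0.23 each), though by −0.85 in 4F with the index as a covariate (adjusted p = 0.151), which did not pass. Of 12 subunits and electron carriers outside the name rule 8, 5 and 7 were lower (1, 0 and 0 higher), and under loess 3, 2 and 1 (4, 5 and 3 higher). Cyct, the testis form of cytochrome c, fell by 1.51 in R1, 1.87 in 3F and 0.84 in 4F (SE 0.21 each, adjusted p = 2.83e-06, 1.27e-07 and 0.00206), while Cox4i1, the common form of the largest nuclear-encoded complex IV subunit, changed by −0.41, −0.26 and −0.30 as deposited and by 0.36, 0.80 and 0.65 under loess.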

How the data were processed

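RNA of 27 cultures was measured on 1 Affymetrix mouse array each. Per the labels, RNA came from a Qiagen column kit, with 6 ug per array. The authors deposited log2 values named as RMA values, per the submitters' processing notes, and its version is not given in the sources used here. RMA as usually run corrects background, quantile-normalizes probes and summarises probe sets, so a change shared by most genes would be lost; whether the 27 arrays were normalized together is not given in the sources used here, and the array medians ranged from 5.91 to 6.1. Arrays hold no read depth, and the number of replicates (3 per group) limits the precision.

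Of 45101 probe sets, 64 controls were left out, 34945 had 1 symbol, 932 several and 9160 none in the platform annotation. Of those with 1 symbol 34741 matched a gene of RefSeq GRCm38.p6, and 0 symbols differed. For each of 18193 genes the brightest probe set was kept. All 27 arrays entered 1 fit of the 9 group means in limma 3.58.1 (R 4.3.3; lmFit, eBayes), and p-values were adjusted by Benjamini-Hochberg over all genes within each of 21 comparisons, 18 between 2 groups and 3 between changes. A gene passed at an adjusted p under 0.05. No filter on low values was used. The test was checked on simulated data for R1 day 11 against day 0 (18193 genes): 10, 41, 47 and 49 of 50 genes changed by 0.5, 1.0, 1.5 and 2.0 were called, and 6 of 17993 unchanged ones. Figures were drawn with matplotlib 3.10.9 and summaries made with pandas 2.3.3 and numpy 2.4.6 in Python 3.11.15.

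The alternatives were quantile normalization and cyclic loess of the deposited values, leaving out genes not above 6.5 (the 40th percentile) in 3 or more arrays, averaging all probe sets of a gene, a fit to the compared arrays only, a variance trend with a robust fit, array weights, the replicate number as a block, the 3′ minus 5′ index as a covariate, and leaving out each array. The labels state no pairing. Same-numbered arrays deviated together (every correlation over 0.1) in 3 comparisons, namely 4F day 11 against day 5, day 0 of 4F against R1 and day 11 of 3F against R1, for which a fit to the compared arrays with that block was added after seeing the data. The members and gene lists were chosen with earlier results of these data known. Named genes are members, with up to 4 per comparison by the largest passing change, the isoform genes, up to 4 of each other list by the largest passing change, and a few set regulators and markers; others were named after their values were seen.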

Additional observations from a re-analysis of the deposited data

Results flagged for a closer look

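The change from day 0 to day 11 differed between lines, by a test of the difference itself in limma, for 14 members between 4F and R1. These were 10 more negative and 4 more positive of 78, beside 11.8% and 3.62% of all genes, and with the 3′ minus 5′ index as a covariate 0 of the 14 passed. The counts lie near the shares of all genes, so they are no result about the family. Under all 3 scalings 11 of the 14 passed, and Sdha, Sdhd and Atp5g1 did not. The change was more negative in 4F for Uqcrc1 (−1.42, adjusted p = 0.00158), Ndufs3 (−1.17, 0.00213), Atp5d (−0.96, 0.0074), Atp5g2 (−0.93, 0.00733), Sdha (−0.91, 0.0346), Atp5a1 (−0.87, 0.0209), Ndufv1 (−0.86, 0.00812), Atp5b (−0.83, 0.0242), Sdhd (−0.80, 0.0448) and Atp5g1 (−0.79, 0.0404). It was more positive in 4F for Cox7a1 (2.24, 0.0145), Cox7c (2.15, 0.0439), Cox6b2 (1.02, 0.0283) and Cox7b2 (0.67, 0.0332). Between 4F and 3F it differed for Atp5g2 (−0.96, 0.00806), Sdhd (−0.93, 0.0284), Ndufs3 (−0.92, 0.0149), Uqcrc1 (−0.88, 0.0435) and Cox6b2 (1.01, 0.0398). Of all genes, 5.15% were more negative and 4.74% more positive, so this count too is no result about the family.

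Leaving out 1 array at a time, Atp5d, Atp5g2, Ndufs3, Ndufv1 and Uqcrc1 kept their call against R1 and Atp5g2 kept it against 3F. The other 9 calls against R1 ended at adjusted p-values of 0.0503 to 0.146, the other 4 against 3F at 0.0519 to 0.132, and each of the 12 arrays of either comparison ended at least 1 of them. The 4F day 11 arrays also had the highest 3′ minus 5′ index.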

How the results depend on the processing

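Of 164 named changes, 132 kept their call without any 1 array. The index as a covariate left 104 past the threshold in the same direction, ended 55 and reversed 5. The reversed values with that covariate were Cox7c −0.19 (4F day 11 against day 5) and −0.33 (4F against 3F, day 11), Ndufb9 −0.73 (4F day 11 against day 0), Cox7a1 −0.32 and Uqcrc1 0.13 (both 4F against 3F, day 11). Under cyclic loess Atp5g3 reversed at day 11 against day 0 to 0.20 in R1 and 0.18 in 3F. With the mean of probe sets Atp5g2 reversed to 0.10 (4F day 11 against day 5) and 0.03 (change in 4F against R1). The replicate block kept all 21 counts within 1.5 times and ended 1 named call (Uqcrc1, change in 4F against 3F, adjusted p = 0.0502). In the 3 comparisons whose numbers deviated together, the block in the compared arrays gave 21 for 22 (4F day 11 against day 5), 2 for 1 (4F against R1, day 0) and 0 for 4 (3F against R1, day 11). The cause of these shifts was not tested.

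The number of members that passed moved by more than 1.5 times as follows. Day 5 against day 0: R1 from 53 to 24 under quantile normalization and 31 under loess; 3F from 23 to 9 and 10, to 56 with array weights and 53 in the compared arrays (18 to 20 leaving out 1 array); 4F from 25 to 7 and 11, to 51 with weights, 38 with the index and 38 in the compared arrays (16 to 26). Day 11 against day 5: R1 from 9 to 24 under loess and 33 with weights (3 to 11); 3F from 17 to 28 under loess, 10 with weights and 6 in the compared arrays (8 to 31); 4F from 22 to 40 under loess, 39 with weights and 14 with the index (11 to 24). Day 11 against day 0: R1 from 40 to 23 under quantile normalization (24 to 49); 3F from 37 to 24 in the compared arrays (32 to 54); 4F from 37 to 56 with weights (31 to 37).

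At day 0, 3F against R1 went from 4 to 7 under loess, 48 with weights, 1 with the index and 1 in the compared arrays (0 to 26), 4F against R1 from 1 to 2, 14, 0 and 0 (0 to 4), and 4F against 3F from 1 to 3 under loess, 20 with weights and 9 in the compared arrays (0 to 1). At day 5, 3F against R1 went from 0 to 1 under quantile normalization and loess, 9 with weights and 2 in the compared arrays (0 throughout leaving out 1 array), 4F against R1 from 3 to 5 under loess, 17 with weights, 6 with the index and 8 in the compared arrays (2 to 4), and 4F against 3F from 6 to 27 with weights, 2 with the index and 14 in the compared arrays (2 to 6). At day 11, 3F against R1 went from 4 to 1 under quantile normalization, loess and without dim genes, 2 with the mean of probe sets, 0 with weights and in the compared arrays and 7 with the index (0 to 41), 4F against R1 from 20 to 44 with weights, 6 with the index and 10 in the compared arrays (11 to 22), and 4F against 3F from 20 to 10, 3 and 2 (13 to 48). The change in 3F against R1 went from 0 to 4 with weights and 2 with the index (0 to 6), in 4F against R1 from 14 to 33, 0 and 6 in the compared arrays (6 to 18), and in 4F against 3F from 5 to 10 with weights and 1 in the compared arrays (2 to 7).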
